A study of Mus musculus with 6 samples.

Results

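The genes described here are 34 nuclear receptors and their partners, picked by gene name from a deposited table of 54532 mouse genes. They comprise 29 nuclear receptors, 3 coregulators (Ncor1, Ncoa1 and Ncoa2) and the hepatocyte receptor pair for the gut hormone FGF15 (Fgfr4 and Klb). Whole liver messenger RNA came from 3 control mice, labelled Notch1fl/fl, and 3 mice in which Notch1 had been knocked out in hepatocytes. The controls carry floxed Notch1 alleles and no treatment is labelled for either group. The labels are silent on the Cre driver and on sex, age, diet and time of day. The study asked how Notch1 bears on thrombopoietin production by the liver. Whether the livers of a group came from separate litters or cages is not labelled, and p-values therefore reflect only how these 6 livers vary.

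Nuclear receptors are transcription factors whose activity is set by small lipid-soluble ligands such as bile acids, oxysterols, retinoids, thyroid hormone and steroids. Many bind DNA as a pair with a retinoid X receptor (RXR) and exchange corepressors such as NCOR1 for coactivators such as NCOA1 and NCOA2 when ligand binds. In liver they are known for setting bile acid, cholesterol, lipid and drug metabolism: bile acids activate FXR (Nr1h4), FXR induces the repressor SHP (Nr0b2), and FGF15 from the intestine signals through FGFR4 with its coreceptor beta-Klotho (Klb) to repress bile acid synthesis.

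Promoter sequence was available from RefSeq (GRCm38.p6) for 30 of the 34 genes, as 45 windows of 250 bases ending just before a transcription start. Shown 5′ to 3′ on the gene's strand are the windows of Ppard, Esr1 and Fgfr4, which had an unadjusted p under 0.05 in the comparison below, and of the bile acid receptor gene Nr1h4. Capitals mark 2 short motifs, found by letter match on either strand: AGGTCA, the half-site that many nuclear receptors bind, and TGGGAA, the core bound by RBPJ, the DNA-binding partner of Notch.
Ppard (chr17:28232504-28232753, plus strand): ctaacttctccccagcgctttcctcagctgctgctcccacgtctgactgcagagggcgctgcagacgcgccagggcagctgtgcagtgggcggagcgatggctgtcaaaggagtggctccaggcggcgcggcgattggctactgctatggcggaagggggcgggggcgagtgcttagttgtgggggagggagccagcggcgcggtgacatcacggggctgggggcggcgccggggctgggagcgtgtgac
Esr1 (chr10:4611739-4611988, plus strand, the first of its listed starts): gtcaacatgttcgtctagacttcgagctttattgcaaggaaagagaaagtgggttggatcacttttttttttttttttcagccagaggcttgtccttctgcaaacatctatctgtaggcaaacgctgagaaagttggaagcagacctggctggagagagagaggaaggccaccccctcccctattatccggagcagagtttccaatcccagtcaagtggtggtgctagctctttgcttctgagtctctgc
Fgfr4 (chr13:55152568-55152817, plus strand): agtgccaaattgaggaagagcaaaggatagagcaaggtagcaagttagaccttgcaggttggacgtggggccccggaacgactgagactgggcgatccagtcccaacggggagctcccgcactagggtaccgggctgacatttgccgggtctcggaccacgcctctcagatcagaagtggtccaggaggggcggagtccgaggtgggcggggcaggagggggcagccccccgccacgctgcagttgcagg
Nr1h4 (chr10:89506659-89506908, minus strand): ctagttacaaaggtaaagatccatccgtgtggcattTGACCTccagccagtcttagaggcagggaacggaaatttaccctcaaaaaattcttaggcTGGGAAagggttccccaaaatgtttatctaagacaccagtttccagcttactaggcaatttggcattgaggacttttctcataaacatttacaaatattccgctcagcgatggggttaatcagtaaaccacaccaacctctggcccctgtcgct
The Nr1h4 window holds 1 half-site, read as TGACCT on the gene's strand 214 bases before the start, and 1 RBPJ core 154 bases before it. The windows of Ppard, Esr1 and Fgfr4 hold neither set of letters. By the deposited coordinates the Nr1h4 window lies inside the gene (chr10:89454234-89533585), before an internal start only. The Esr1 window also lies inside its gene, which starts at 4611593, and those of Fgfr4 and Ppard run past the gene start. Among the genes described here, 8 of 45 windows (17.8%) hold AGGTCA and 10 (22.2%) hold TGGGAA, against 14.02% and 21.59% of the 32851 mouse windows of the same length. Windows of 1 gene can overlap: the 2 of Nr1h3 hold the same TGGGAA sites, as do 2 windows of Rara. A match describes the letters only, and its absence says nothing about the factor.

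Values are FPKM (fragments per kilobase of gene, scaled per library), and each is given for livers 1, 2 and 3 of a group in that order. Whole reads recovered from the values summed to between 15612924 and 17511961 per library. At this depth 3 reads in a gene of 1 kilobase correspond to 0.150 to 0.201 FPKM. The scaling did not follow the recovered reads alone. Control 1 had 16053926 reads and knockout 3 had 15807542, yet 3 such reads corresponded to 0.200 and 0.175 FPKM. Hepatocyte markers were abundant in every library, with Alb between 20452 and 37515 FPKM. Their sum (9 genes) ranged from 45460 to 53346 FPKM in controls and from 32510 to 44160 FPKM in knockouts. Of the 9 means 7 were lower in the knockouts, and with equal FPKM sums 5 of the 9 log2 differences were negative. Notch1 itself measured 0.618, 0.965 and 0.854 FPKM in the controls and 0.301, 0.540 and 0.292 FPKM in the knockouts, so the groups did not overlap (limma adjusted p = 0.257). Summed markers of bile duct cells (8 genes, Cldn4 at 0 throughout) ranged from 12.9 to 16.1 FPKM in controls and from 23.7 to 32.9 FPKM in knockouts, and those of mesothelium (6 genes) from 4.39 to 43.3 and from 73.1 to 124 FPKM. The 17 acute-phase genes summed to 24330 and 23455 FPKM in knockouts 1 and 3, against 8758 FPKM in knockout 2 and 10695 to 12429 FPKM in the controls. The part of these differences in any result below was not tested, and in whole tissue fewer cells of a type and less RNA per cell cannot be told apart.

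Of the 34 genes, 30 averaged 0.5 FPKM or more and were tested with limma on log2(FPKM + 1) together with all 12022 genes past that filter. None of the 30 passed an adjusted p of 0.05, while 3 of the 12022 genes did (0.025%, limma; 0 genes with a replicate block). At an unadjusted p under 0.05 there were 4: Ppard and Esr1 with higher means in the knockouts, and Nr3c1 and Fgfr4 with lower means. That is 13.3% of the 30, against 13.9% of all genes tested (6.83% higher and 7.06% lower). With voom on the recovered reads the adjusted test again called none and 5 genes had an unadjusted p under 0.05. In 6 of the 30 (20.0%) every knockout lay outside the range of the controls, 3 of them higher (the same Ppard and Esr1, with Rara) and 3 lower (Nr3c1 and Fgfr4, with Thrb). The same holds for 19.8% of all genes tested, 9.2% higher and 10.6% lower. Both shares are thus close to the background. Differences on the log2(FPKM + 1) scale ran from -0.34 to 0.43 with a median of -0.02, beside a median of -0.01 for all genes tested, and 14 means were higher and 16 lower in the knockouts. Scaling every library to the same FPKM sum moved the median of all genes to 0.10 and that of the 30 genes to 0.08, with 20 differences positive and 10 negative, of which 3 and 0 had an unadjusted p under 0.05.

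**Figure D1:**
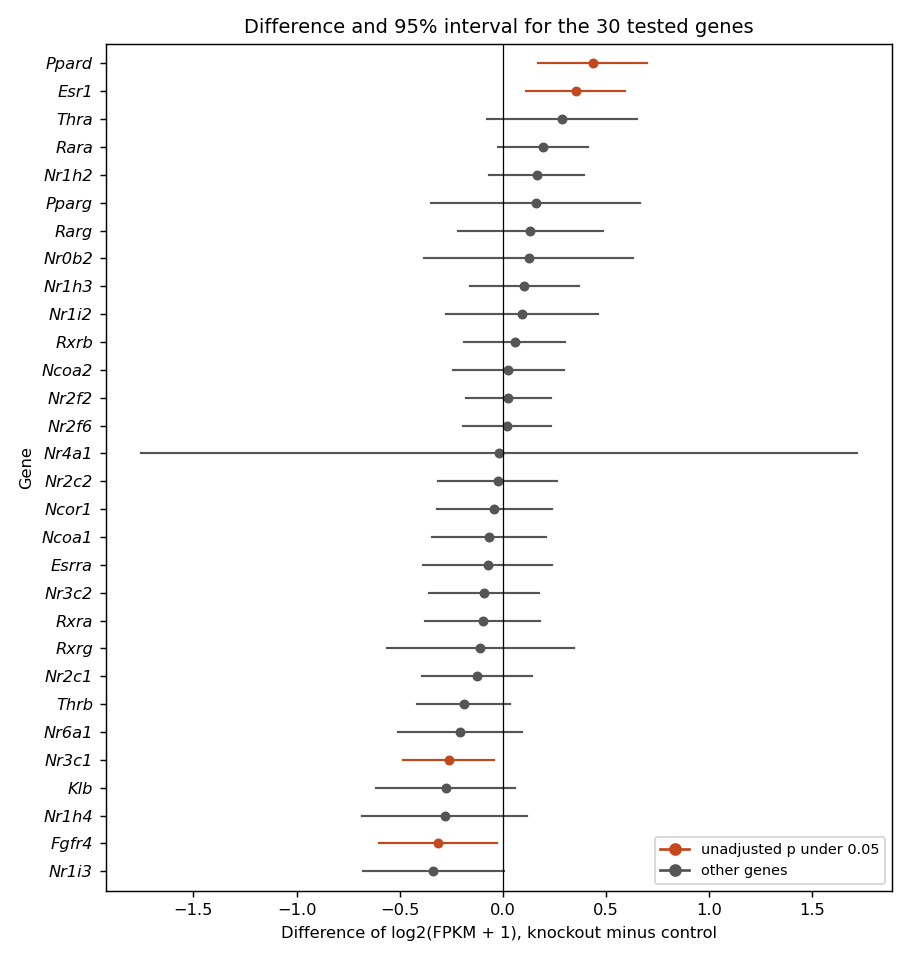
Difference of log2(FPKM + 1), knockout minus control, for the 30 tested genes (points, limma estimate; bars, 95% confidence interval; orange marks an unadjusted p under 0.05). The estimates lie between -0.34 and 0.43, and only Ppard, Esr1, Nr3c1 and Fgfr4 have intervals that exclude 0.

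The levels of the receptors differed widely. Rxra, the common heterodimer partner, had the highest mean over the 6 livers at 54.9 FPKM, then Nr1h4 at 49.8, Nr1h3 (LXR alpha, an oxysterol sensor) at 46.4, Nr0b2 at 32.5 and Nr1i2 (PXR, a sensor of foreign compounds) at 29.5 FPKM. Within this order Rxra, Nr1h4 and Nr1h3 had overlapping ranges, as had Nr0b2 and Nr1i2. The orphan receptor Nr2f6 followed at 18.9 FPKM, and the other tested genes lay between 10.8 FPKM (Nr1h2) and 0.562 FPKM (Nr6a1). Nr2f6 shares 1622 of its 2983 exonic bases with Ocel1 on the opposite strand, with the same limit as for Rarb below. At the bottom were 4 genes too low to test. The vitamin D receptor Vdr had 0 to 7 reads per library and Hnf4g, the gut and kidney relative of the hepatocyte factor Hnf4a, had 0 to 6. Nr2f1 had 4 to 31 reads, and Rarb, which in liver is known from stellate cells, had 12 to 34. Rarb shares 1793 exonic bases with Top2b on the opposite strand, which read 2.67 to 3.27 FPKM. Whether counting used strand is not known here, so reads of the pair in the shared bases cannot be told apart. Vdr was at 0 in 2 libraries, controls 1 and 2. Over the 6 libraries a count of 0 for Vdr would allow up to 0.0265 to 0.0355 FPKM, with counting error alone considered.

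**Figure D2:**
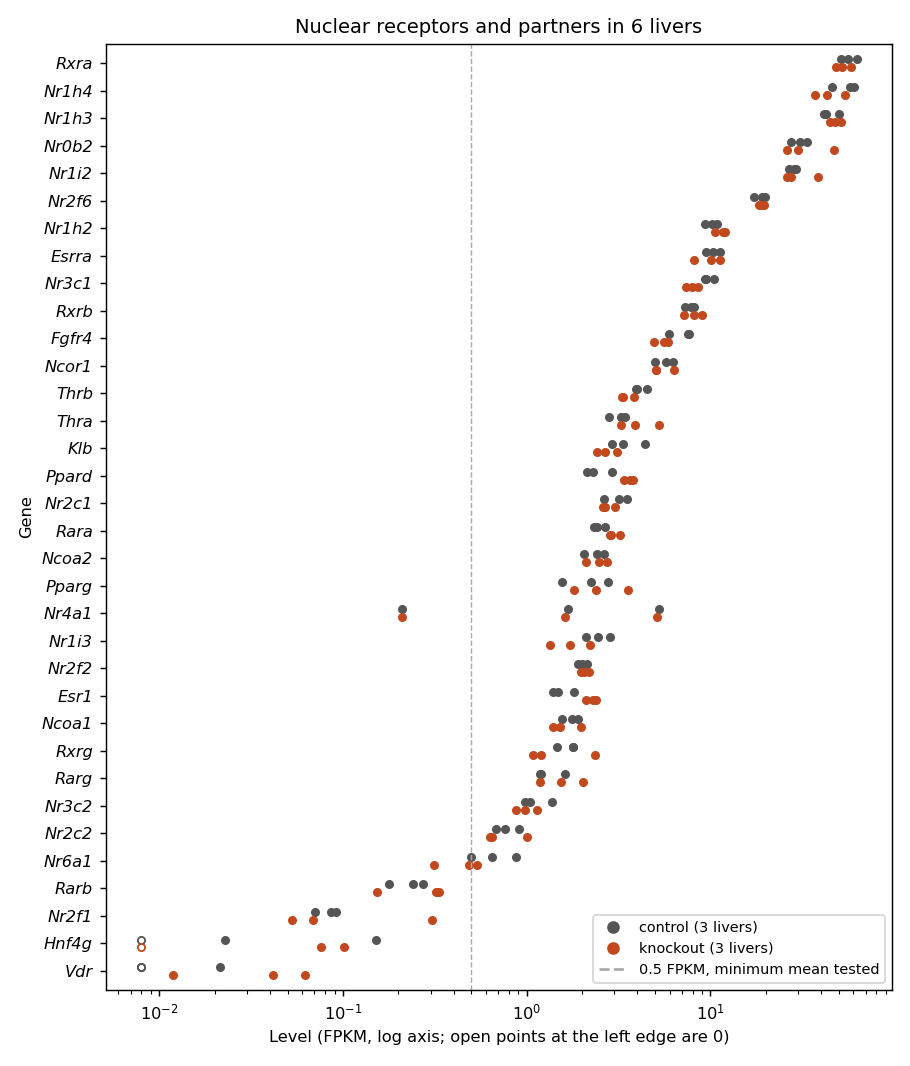
Level of each of the 34 genes in each liver (FPKM, log axis; 1 point a liver, 3 controls and 3 knockouts; open points at the left edge are 0; dashed line, the 0.5 FPKM mean needed for testing). Rxra, Nr1h4 and Nr1h3 lead at means of 46.4 to 54.9 FPKM, and Vdr, Hnf4g, Nr2f1 and Rarb stay left of the line.

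In the bile acid pathway, the receptor and the repressor it induces both had overlapping groups. Nr1h4 measured 45.8, 60.3 and 57.7 FPKM in controls and 54.2, 37.2 and 43.4 FPKM in knockouts. The groups overlapped through control 1 and knockout 1, with means of 54.6 ± 7.73 and 44.9 ± 8.61 FPKM (SD, n = 3) and a log2 difference of -0.28 (SE 0.17, 95% interval -0.68 to 0.12; limma adjusted p = 0.511). Without knockout 2 that difference was -0.16 and without knockout 1 it was -0.42. Nr0b2, the SHP gene and a classical FXR target, measured 30.7, 27.5 and 33.5 FPKM in controls and 26.0, 30.2 and 47.1 FPKM in knockouts. Knockout 3 stood above the other 5 livers, and the log2 difference of 0.13 (SE 0.21; limma adjusted p = 0.842) was -0.12 without it.

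Both parts of the FGF15 receptor had lower means in the knockouts. Fgfr4 (chr13:55152640-55168759), the tyrosine kinase receptor, measured 7.70, 5.94 and 7.58 FPKM in controls and 4.91, 5.87 and 5.61 FPKM in knockouts. The highest knockout lay just under the lowest control, so the groups were apart by a narrow gap. The mean was 7.07 ± 0.981 against 5.46 ± 0.499 FPKM (SD, n = 3), a log2 difference of -0.32 (SE 0.12, 95% interval -0.60 to -0.03; limma adjusted p = 0.322, 0.299 to 0.688 over the alternative settings). With replicate number as a block, the unadjusted p of Fgfr4 was no longer under 0.05. The same held with equal FPKM sums, where the log2 difference was -0.18. Klb, the coreceptor, measured 2.92, 3.36 and 4.39 FPKM in controls and 3.12, 2.41 and 2.69 FPKM in knockouts, overlapping through knockout 1 and control 1 (log2 difference -0.28, SE 0.14; limma adjusted p = 0.439). Of the 10 other genes listed for this pathway, among them the FGF receptors, Fgf21 and the adaptor Frs2, 7 were tested, 5 means were higher, 2 lower, and none had an unadjusted p under 0.05 (1 with equal FPKM sums).

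Downstream of this pathway, all 5 tested genes that bile acids are known to repress had lower means in the knockouts, 3 of them at an unadjusted p under 0.05, with a median log2 difference of -0.68. Over all genes tested, 7.06% were lower and 6.83% higher with such a p. These shares stand beside the counts of every list below. With every library scaled to the same FPKM sum, 4 of the 5 log2 differences were negative and 2 had an unadjusted p under 0.05. Cyp8b1, which makes cholic acid, had a mean of 175 ± 9.30 FPKM in controls and 95.5 ± 27.4 FPKM in knockouts (limma adjusted p = 0.150). Slc10a1, the sodium-dependent bile acid importer, had 201 ± 19.5 and 126 ± 16.5 FPKM (0.134 by the same test), and Cyp27a1, of the alternative route of synthesis, had 195 ± 18.8 and 143 ± 14.7 FPKM (limma adjusted p = 0.224). Cyp7a1, the rate-limiting enzyme, had overlapping groups at 11.8 ± 3.29 and 11.3 ± 5.48 FPKM, and Cyp7b1 ranged from 7.32 FPKM in knockout 2 to 131 FPKM in control 1. Cyp7b1 also belongs to a list of 11 male-biased genes, all with lower means in the knockouts and a median log2 difference of -0.85. Of these 11, 2 had an unadjusted p under 0.05.

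Genes that FXR is known to induce had means on both sides. Of 9 tested, 3 means were higher and 6 lower, 1 and 2 of these at an unadjusted p under 0.05, with a median log2 difference of -0.30. With equal FPKM sums the counts under it were 2 and 1, and the median was -0.15. Slc51b, a subunit of the basolateral bile acid exporter, read 0.282, 0.176 and 0.0849 FPKM in controls and 0.566, 1.55 and 1.49 FPKM in knockouts, on 1 to 22 reads. Every control was under the 0.5 FPKM mean needed for testing, so Slc51b passed that filter only through the knockouts. Abcc2, the canalicular conjugate pump, had a mean of 37.5 ± 5.30 against 27.3 ± 2.01 FPKM, and the secreted protein Fetub 216 ± 25.4 against 152 ± 31.0 FPKM. The bile salt export pump Abcb11 had 60.2 ± 10.4 against 48.3 ± 3.68 FPKM, with overlapping groups (limma adjusted p = 0.400). None of these target genes passed the adjusted test.

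The oxysterol receptors had small positive differences. Nr1h3 measured 49.9, 42.8 and 41.5 FPKM in controls and 51.7, 47.7 and 44.8 FPKM in knockouts (log2 difference 0.10; limma adjusted p = 0.736). Nr1h2 (LXR beta), the broadly expressed form, measured 9.34, 10.9 and 10.2 FPKM against 11.8, 12.0 and 10.6 FPKM, a log2 difference of 0.16 (limma adjusted p = 0.503). Nr1h3 gave between 79.8% and 84.2% of the summed LXR FPKM in every liver, with overlapping groups. Among 14 LXR target genes tested, 4 means were higher and 10 lower, none and 2 of these at an unadjusted p under 0.05, with a median log2 difference of -0.18. With equal FPKM sums there were 6 positive and 8 negative differences, 0 and 1 of them under it, and a median of -0.05. The cholesterol exporter Abcg1 had 1.498 ± 0.313 FPKM in controls and 0.820 ± 0.113 FPKM in knockouts, and Mlxipl, the carbohydrate-sensing factor ChREBP, 20.3 ± 3.37 and 14.3 ± 0.761 FPKM. Their limma adjusted p values were 0.206 and 0.202.

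The receptors for foreign compounds both had overlapping groups. Nr1i3, the CAR gene, measured 2.11, 2.46 and 2.85 FPKM in controls and 1.73, 1.34 and 2.21 FPKM in knockouts, on 114 to 209 reads. Knockout 3 lay inside the control range, and the log2 difference was -0.34 (SE 0.14, 95% interval -0.68 to 0.00; limma adjusted p = 0.360, 0.260 to 0.580 over the alternatives). With replicate number as a block, its unadjusted p was under 0.05. Nr1i3 shares 3304 of its 4414 exonic bases with Tomm40l on the opposite strand, whose own FPKM was 0.70 to 1.18 in controls and 1.13 to 1.71 in knockouts. Whether counting used strand is not given in the sources used here, so reads of these neighbours cannot be told apart. Nr1i2 (PXR) measured 26.8, 28.6 and 29.4 FPKM against 26.0, 38.5 and 27.4 FPKM, with knockout 2 alone above the controls (log2 difference 0.09; limma adjusted p = 0.844).

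CAR and PXR target genes had lower means in the knockouts in 9 of 13 cases, 4 of these at an unadjusted p under 0.05, and higher means in 4, none of them under it. The median log2 difference was -0.45. Over all genes tested, 7.06% were lower with such a p. With equal FPKM sums 2 of the lower genes were under it, and the median was -0.30. Alas1, the first enzyme of heme synthesis, had 43.4 ± 16.3 FPKM in controls and 9.23 ± 1.44 FPKM in knockouts (SD, n = 3; limma adjusted p = 0.0900, 0.0217 to 0.267 over the alternatives, below 0.05 with voom and without control 3). The esterase Ces2a had 184 ± 6.74 and 124 ± 20.7 FPKM, and the bilirubin-conjugating enzyme Ugt1a1 27.5 ± 3.40 and 20.4 ± 2.74 FPKM. Cyp2b10, the usual reporter of CAR, was widely spread among knockouts at 4.02, 10.4 and 0.969 FPKM, against 6.53, 9.99 and 6.98 FPKM in controls. Cyp3a11, the usual reporter of PXR, had means of 1335 ± 252 and 980 ± 182 FPKM with overlapping groups (limma adjusted p = 0.403).

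**Figure D3:**
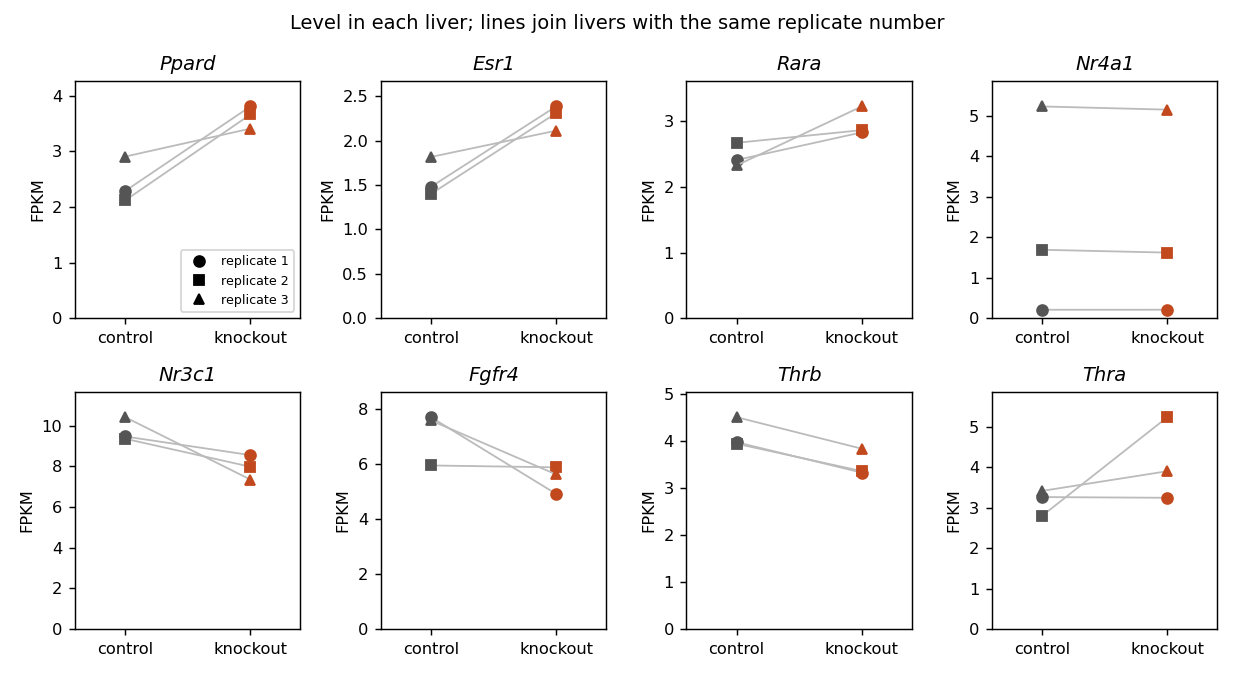
Level (FPKM, linear axes from 0) in each liver for selected genes, controls at left and knockouts at right; marker shape gives the replicate number and lines join equal numbers. Ppard and Esr1 lie higher in all 3 knockouts than in any control, while Nr4a1 spans 0.209 to 5.23 FPKM with nearly level lines.

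The RXR partners had small differences. Rxra measured 56.1, 51.5 and 62.6 FPKM in controls and 58.3, 48.5 and 52.1 FPKM in knockouts (log2 difference -0.10; limma adjusted p = 0.771). Rxrb, the widely expressed form, measured 7.89, 7.24 and 8.10 FPKM against 8.99, 7.20 and 8.16 FPKM (log2 difference 0.06; limma adjusted p = 0.857). Rxrg, best known from muscle and brain, measured 1.80, 1.79 and 1.47 FPKM against 1.08, 2.37 and 1.197 FPKM, so knockout 2 was the highest liver and the other 2 knockouts the lowest. Rxra gave 83.5% to 86.7% of the summed RXR FPKM. The share of Rxrb was 11.2% to 12.0% in controls and 12.4% to 13.3% in knockouts. Shares within receptor families were described after the values had been seen, and they carry no test.

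Among the retinoic acid receptors Rara had higher levels in every knockout. It measured 2.41, 2.67 and 2.33 FPKM in controls and 2.83, 2.87 and 3.23 FPKM in knockouts, a ratio of means of 1.204. The groups did not overlap, and the log2 difference was 0.20 (SE 0.09, 95% interval -0.02 to 0.41; limma adjusted p = 0.401). Rarg measured 1.204, 1.63 and 1.19 FPKM against 1.18, 2.03 and 1.54 FPKM (log2 difference 0.13; limma adjusted p = 0.748). Of 6 retinoid target genes tested, 3 means were higher and 3 lower, 1 of them at an unadjusted p under 0.05. The median log2 difference was 0.07, or 0.20 with equal FPKM sums. The gene with such a p was Tgm2, a transglutaminase with 16.3 ± 1.47 FPKM in controls and 26.0 ± 2.61 FPKM in knockouts (SD, n = 3; limma adjusted p = 0.107).

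The thyroid hormone receptors had differences of opposite sign, and the groups of Thra overlapped. Thrb, the main form in hepatocytes, measured 3.97, 3.94 and 4.503 FPKM in controls and 3.32, 3.36 and 3.83 FPKM in knockouts. All knockouts were below all controls (means 4.14 ± 0.317 and 3.50 ± 0.285 FPKM; log2 difference -0.19, SE 0.09, 95% interval -0.41 to 0.03; limma adjusted p = 0.428). Thra measured 3.26, 2.80 and 3.42 FPKM against 3.25, 5.24 and 3.90 FPKM, with knockout 2 the highest liver. Its log2 difference of 0.29 (SE 0.15; limma adjusted p = 0.458) was 0.14 without knockout 2, and Thra shares 263 exonic bases with Nr1d1 on the opposite strand. The share of Thra in the summed FPKM of both genes was 41.6% to 45.1% in controls and 49.4%, 61.0% and 50.5% in knockouts 1 to 3.

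Thyroid hormone target genes had 2 higher and 6 lower means among 8 tested, with a median log2 difference of -0.21. The unadjusted p was under 0.05 for Gpd2, the mitochondrial glycerol phosphate dehydrogenase, and Cpt1a, the gate of fatty acid oxidation, both with lower means in the knockouts. With equal FPKM sums neither was under it, the median was -0.07, and 3 differences were positive and 5 negative. Cpt1a had 72.2 ± 1.58 against 59.1 ± 4.46 FPKM, and Gpd2 had 6.48 ± 0.943 against 5.08 ± 0.311 FPKM. Dio1, the deiodinase often used as a readout of the hormone, had overlapping groups at 71.6 ± 16.1 and 76.2 ± 37.6 FPKM (log2 difference -0.04), and Thrsp likewise at 174 ± 56.3 and 144 ± 17.0 FPKM. For the vitamin D receptor, none of the 3 listed targets was high enough to test.

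Ppard had the largest positive log2 difference of the 30 genes. It encodes PPAR delta, a broadly expressed fatty acid receptor, and lies at chr17:28232700-28301474. It measured 2.29, 2.12 and 2.91 FPKM in controls and 3.81, 3.66 and 3.41 FPKM in knockouts, on 255 to 552 reads. All knockouts were above all controls, with means of 2.44 ± 0.415 and 3.63 ± 0.202 FPKM (SD, n = 3), a ratio of 1.49. The log2 difference was 0.43 (SE 0.11, 95% interval 0.17 to 0.70; limma adjusted p = 0.182, 0.125 to 0.448 over the alternatives). Its unadjusted p was under 0.05 in the 17 alternative settings run, as was that of Esr1, against 14 for Nr3c1 and 11 for Fgfr4.

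Pparg, the receptor known for driving lipid storage, was more spread, with 1.56, 2.24 and 2.77 FPKM in controls and 1.81, 3.58 and 2.38 FPKM in knockouts (log2 difference 0.16; limma adjusted p = 0.795). Ppara, the dominant form in hepatocytes, had 21.3 ± 4.86 and 21.2 ± 3.62 FPKM (limma adjusted p = 0.992). Ppard gave 7.89% to 11.6% of the summed PPAR FPKM in controls and 12.3% to 13.9% in knockouts. Of the 5 tested PPAR gamma targets, the means of the lipid-binding Fabp4, the droplet protein Cidec and the fatty acid transporter Cd36 were higher and those of the droplet proteins Plin2 and Plin4 lower. Plin4 alone had an unadjusted p under 0.05, at 0.665 ± 0.131 against 0.358 ± 0.0248 FPKM (limma adjusted p = 0.296). Its knockout mean was under the 0.5 FPKM needed for testing, so Plin4 passed that filter only through the controls. With equal FPKM sums none of the 5 was under it.

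**Figure D4:**
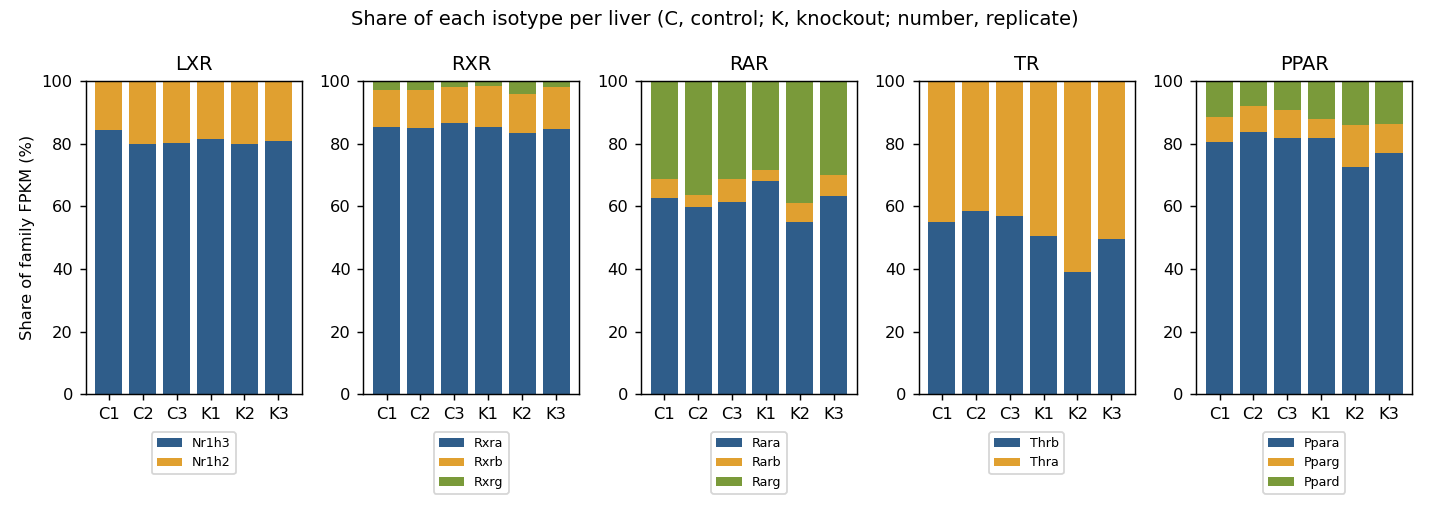
Share of each isotype in the summed FPKM of its receptor family per liver (percent; C, control; K, knockout; the number is the replicate). The Thra share is 41.6% to 45.1% in controls and 49.4% to 61.0% in knockouts, and the Ppard share 7.89% to 11.6% and 12.3% to 13.9%.

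Of the steroid receptors, Esr1 and Nr3c1 differed in opposite directions. Esr1, estrogen receptor alpha (chr10:4611593-5005614), measured 1.48, 1.398 and 1.81 FPKM in controls and 2.38, 2.31 and 2.11 FPKM in knockouts, on 303 to 632 reads. All knockouts were above all controls, with means of 1.56 ± 0.221 and 2.27 ± 0.141 FPKM (SD, n = 3), a ratio of 1.45. The log2 difference was 0.35 (SE 0.10, 95% interval 0.11 to 0.59; limma adjusted p = 0.219, 0.125 to 0.474 over the alternatives). The glucocorticoid receptor Nr3c1 measured 9.47, 9.36 and 10.4 FPKM in controls and 8.55, 7.98 and 7.35 FPKM in knockouts. Here all knockouts were below all controls, with means of 9.75 ± 0.585 and 7.96 ± 0.603 FPKM. The log2 difference of Nr3c1 was -0.26 (SE 0.09, 95% interval -0.49 to -0.04; limma adjusted p = 0.292, 0.234 to 0.710 over the alternatives). With equal FPKM sums it was -0.13, and the unadjusted p was no longer under 0.05.

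The other receptors of this kind had overlapping groups. The mineralocorticoid receptor Nr3c2 measured 1.37, 1.04 and 0.985 FPKM in controls and 0.981, 1.13 and 0.876 FPKM in knockouts (log2 difference -0.09; limma adjusted p = 0.773). Esrra, the estrogen-related receptor that acts on mitochondrial genes, measured 9.42, 11.2 and 10.3 FPKM against 8.14, 11.3 and 10.1 FPKM (log2 difference -0.07; limma adjusted p = 0.850). All 7 of its listed mitochondrial targets had lower means in the knockouts, with a median log2 difference of -0.10, and none had an unadjusted p under 0.05; with equal FPKM sums all 7 differences were positive, with a median of 0.05.

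Glucocorticoid target genes had a positive median difference. Of 15 tested, 10 means were higher and 5 lower, 4 and 1 of them at an unadjusted p under 0.05, with a median log2 difference of 0.42. With equal FPKM sums the counts under it were 7 and 1, and the median was 0.49. Over all genes tested, 6.83% were higher and 7.06% lower at an unadjusted p under 0.05 in the main test. None of the 15 passed the adjusted threshold in that test. Mt1 and Mt2, the metallothioneins, had 48.1 ± 18.1 and 1.33 ± 0.982 FPKM in controls against 289 ± 145 and 31.0 ± 16.2 FPKM in knockouts (limma adjusted p = 0.120 and 0.0953). Both are also known acute-phase genes. In knockout 2, where the acute-phase sum was low, they read 122 and 12.3 FPKM, each above its control mean. A link between their levels and the acute-phase genes was not tested. Without knockout 2 the limma adjusted p of Mt1 and Mt2 was 0.0285 and 0.0137. In that fit 29 of all genes tested were called, against 3 in the main test.

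Fkbp5, an immunophilin that holds the receptor inactive, measured 5.67, 5.06 and 6.93 FPKM in controls and 10.1, 8.89 and 7.82 FPKM in knockouts, with no overlap (limma adjusted p = 0.182). Tsc22d3, the leucine zipper protein GILZ, had overlapping groups at 23.0 ± 6.40 and 31.6 ± 3.52 FPKM. G6pc, the glucose-releasing phosphatase, had the lower mean in the knockouts, 97.5 ± 60.5 against 272 ± 107 FPKM (limma adjusted p = 0.219).

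**Figure D5:**
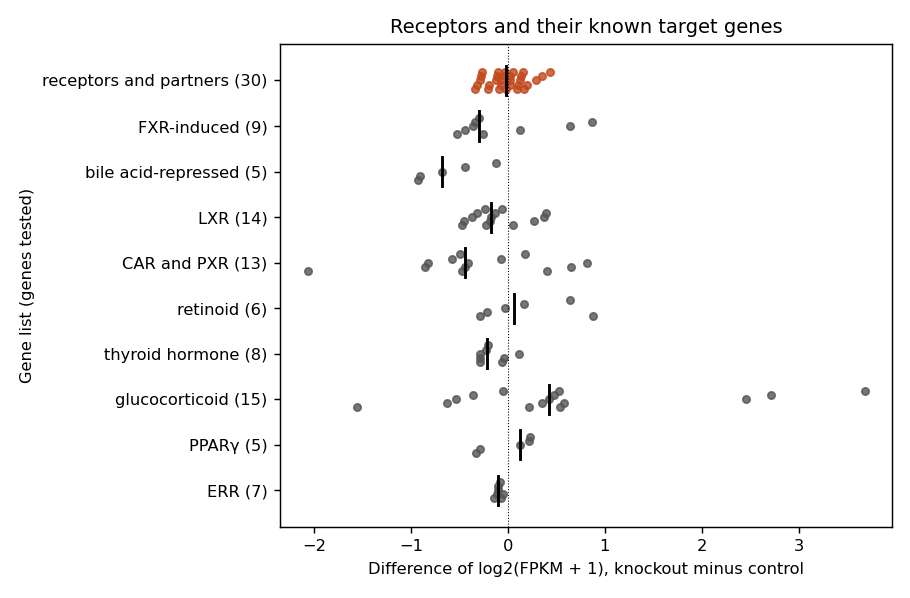
Difference of log2(FPKM + 1), knockout minus control, for the tested genes of each target list (1 point a gene; vertical bars, list medians). Medians are -0.68 for bile acid-repressed genes, -0.45 for CAR and PXR targets and 0.42 for glucocorticoid targets, beside -0.01 for all genes tested.

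The orphan receptors, which have no agreed natural ligand, included both the steadiest and the most variable genes. Nr2f2 (COUP-TFII) measured 2.01, 1.90 and 2.13 FPKM in controls and 1.98, 2.17 and 2.05 FPKM in knockouts. Its pooled SD within groups was at the 2.93 percentile of all genes tested. Nr2f6 measured 17.4, 19.7 and 19.1 FPKM against 19.7, 18.4 and 18.9 FPKM. Nr2c1 (TR2) measured 3.53, 2.63 and 3.20 against 2.66, 2.60 and 3.03 FPKM, with a log2 difference of -0.13. Nr2c2 (TR4), which shares 4590 exonic bases with Mrps25 on the opposite strand, measured 0.683, 0.761 and 0.915 against 1.003, 0.648 and 0.631 FPKM. Nr6a1, the germ cell nuclear factor, measured 0.499, 0.652 and 0.878 against 0.315, 0.539 and 0.486 FPKM, with a log2 difference of -0.21 (limma adjusted p = 0.514).

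Nr4a1, an immediate early gene also called Nur77, varied with replicate number more than with group. It measured 0.209, 1.69 and 5.23 FPKM in controls and 0.210, 1.62 and 5.15 FPKM in knockouts, on 11 to 309 reads. Within a group the livers spanned 25.0-fold and 24.6-fold, while the ratio of knockout to control for equal numbers was 0.959 to 1.003. Its pooled SD was at the 99.6 percentile of all genes tested. The log2 difference was -0.02, with an SE of 0.73, or 0.091 when replicate number entered as a block. Only 3 of the 30 genes ranked their livers in the same order of number in both groups, against 21.1% of all genes tested. The labels give no meaning to the number.

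The coregulators had log2 differences between -0.07 and 0.03. The corepressor Ncor1 measured 5.76, 5.01 and 6.24 FPKM in controls and 6.32, 5.07 and 5.09 FPKM in knockouts (log2 difference -0.04; limma adjusted p = 0.915). The coactivator Ncoa1 measured 1.76, 1.57 and 1.92 against 1.98, 1.51 and 1.398 FPKM, and its relative Ncoa2 measured 2.43, 2.04 and 2.63 against 2.72, 2.09 and 2.48 FPKM. Control 2 was the lowest control for all 3 genes, and knockout 2 the lowest knockout for Ncor1 and Ncoa2. Of 21 other coregulators 20 were tested, with 8 higher and 12 lower means, 1 and 2 of them at an unadjusted p under 0.05, and a median log2 difference of -0.05 (15 positive and 5 negative differences, median 0.07, with equal FPKM sums). These were Tbl1xr1, a subunit of the NCOR complex (4.15 ± 0.164 FPKM in controls and 5.64 ± 0.332 in knockouts), the corepressor Nrip1 (1.98 ± 0.346 and 1.09 ± 0.276 FPKM) and the coactivator Ncoa3 (3.20 ± 0.310 and 2.36 ± 0.186 FPKM). Their limma adjusted p values were 0.165, 0.202 and 0.239.

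With 19 further nuclear receptors added, 32 of 48 were high enough to test and 5 (Rorb, Esr2, Nr2e1, Nr2e3 and Nr0b1) were listed at 0 in all libraries. Of the 7 further receptors tested, 3 means were higher and 4 lower. Nr1d2 (REV-ERB beta), a clock repressor, had an unadjusted p under 0.05, at 3.62 ± 0.687 FPKM in controls and 2.18 ± 0.0670 FPKM in knockouts (limma adjusted p = 0.165). Its relative Nr1d1 overlapped, with 3.36, 6.92 and 3.66 against 1.93, 1.77 and 4.75 FPKM. Hnf4a, a master regulator of the hepatocyte, had 133 ± 15.3 and 125 ± 23.4 FPKM, and Nr5a2 (LRH-1), a regulator of bile acid genes, 6.11 ± 0.874 and 6.60 ± 0.585 FPKM. Their limma adjusted p values were 0.840 and 0.770.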

How the data were processed

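Poly-A RNA libraries (NEBNext Ultra kit) from 6 livers, 3 per group, were used. The table the authors deposited holds FPKM per gene, with gene names, coordinates and lengths. HISAT2 2.0.5, featureCounts 1.5.0-p3 and GRCm38 are listed, without settings, in the submitters' processing notes, and the formula behind FPKM is not. In each library 100% of values, multiplied by gene length, fell within 0.1 read of whole steps, which gave the reads used for depth and for voom. Knockout columns carry the group's name, whereas control columns are named NC and were assigned by elimination, with 0 columns unassigned. All control values depend on this.

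The 12022 genes averaging 0.5 FPKM or more were compared between groups by limma 3.58.1 on log2(FPKM + 1) (eBayes with trend, R 4.3.3), two-sided, with Benjamini-Hochberg adjustment over all of them and a threshold of 0.05. The pseudocount understates differences of low genes. The filter averages both groups, so a gene can pass it through 1 group alone, as Slc51b, Plin4, Notch1 and Nr6a1 did. Errors are SD over 3 libraries unless marked SE. The fit was also run on simulated reads with the same relative spread for every gene. Such a run does not measure its power for the genes described here. Alternatives changed the pseudocount, filter, scaling, variance model and replicate block, or left out 1 library each. Deviations from group means correlated at 0.31, 0.16 and 0.10 (Pearson, over genes) between livers with the same number, and at -0.25 to 0.11 otherwise. For control 3 the correlation was slightly higher with knockout 2 (0.110) than with knockout 3 (0.101). The replicate block took the numbers to pair the livers, from the values alone. The main fit had no block, so its errors and p-values do not use that pairing. Motifs, exonic overlaps and promoter windows were computed in Python 3.11.15 from GENCODE M21 and RefSeq tables. In GENCODE, 32 of the 34 genes had the file's coordinates, and 11 share exonic bases with a gene on the opposite strand.

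The genes and lists were chosen with earlier results of these data known. Named beside the 34 genes were Notch1, up to 3 genes per list and direction with an unadjusted p under 0.05, all of a list with 5 or fewer tested genes, and a set of standard target genes and receptors regardless of value. Markers of other cells were used only as sums, and 1 bile duct marker is not reported here.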

Additional observations from a re-analysis of the deposited data

How the results depend on the processing

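None of the 30 tested genes passed an adjusted p of 0.05 in the main limma test or in any of the 17 alternatives, where the lowest adjusted p was 0.125. The number with an unadjusted p under 0.05 was 4 in the main test and with the replicate block, where Nr1i3 took the place of Fgfr4, and 2 to 5 when 1 library was left out. Without control 3 it was 2, Ppard and Esr1. With the replicate block none of the 30 passed the adjusted threshold either, and their lowest adjusted p was 0.200. Over all genes, 3 were called in the main test, 1 with a pseudocount of 0.1, 0 without a filter, 0 with the replicate block, 5 with equal FPKM sums, 15 with voom and 0 to 58 with 1 library left out (0 without control 2 or knockout 1, 1 without control 1, 2 without knockout 3, 29 without knockout 2 and 58 without control 3).

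Equal FPKM sums moved the median of all genes from -0.01 to 0.10 (log2), and with them the sign turned for Rxra (0.0496), Esrra (0.0644), Nr2c2 (0.032), Nr4a1 (0.081), Ncor1 (0.0846), Ncoa1 (0.0225), Cyp7a1 (0.0094), Dio1 (0.1025) and Hnf4a (0.0518). Apart from Dio1, these lay below that new median. Under quantile normalization it turned for Nr2f2 (-0.0082) and Dio1 (0.0554), with array weights for Nr4a1 (0.24) and Dio1 (0.1569), and with voom for Nr4a1 (0.0147). Leaving out 1 library turned the sign of these differences, which ranged (log2) as follows: Cidec -0.0427 to 0.50, Cyp7a1 -0.4474 to 0.2298, Cyp7b1 -1.6310 to 0.3090, Dio1 -0.3501 to 0.4575, Esrra -0.1691 to 0.0427, Ncoa2 -0.0438 to 0.0994, Ncor1 -0.1305 to 0.0198, Nr0b2 -0.1166 to 0.2983, Nr1i2 -0.0804 to 0.1944, Nr2c2 -0.1217 to 0.0266, Nr2f2 -0.0028 to 0.0542, Nr2f6 -0.0301 to 0.0578, Nr4a1 -0.6148 to 0.5776, Nr5a2 -0.0044 to 0.1670, Ppara -0.1768 to 0.1437, Pparg -0.0319 to 0.3203, Rxrb -0.0116 to 0.1303, Rxrg -0.3283 to 0.0201 and Thrsp -0.4415 to 0.0153. The cause was not tested. Depth limits Vdr, Hnf4g, Nr2f1 and Rarb, and with 3 livers a group a p that misses the threshold does not show that levels were equal.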

Other observations

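Knockout 1 was the highest of the 6 livers for 8 and the lowest for 8 of the 30 tested nuclear receptors and partners, against 13.7% and 12.9% of all genes tested. Knockout 2 was the highest for 8 and the lowest for 6, against 22.5% and 24.3%. The median SD within groups, pooled over both groups on the log2(FPKM + 1) scale, was 0.135 for the 30 genes and 0.156 for all genes tested. In 11 of the 30 the knockout differed from the control of equal number in 1 direction in all 3 pairs, against 40.1% of all genes tested.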
